A study of Mus musculus with 24 samples.

Results

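The genes described here were 5 negative feedback regulators of p53, namely Mdm2, Mdm4, Ppm1d, Ccng1 and Rchy1, chosen by name among the 21671 genes that every file of the series lists. RNA-Seq was performed on B and non-B cells from the spleens of mice of 8 weeks of age, on a C57/Bl6 background, in 24 samples. Wild-type mice gave 4 samples per condition and Trp53-/- mice, which carry a germline deletion of the p53 gene in all their cells, gave 2. Mice were either left unirradiated (mock) or exposed to 7 Gy of whole-body ionizing radiation (IR), with spleens taken after 4 h. B cells were those retained by B220 magnetic beads, and non-B cells were the column flow-through. As many mice as samples were used for each genotype and treatment, so that within a cell type a sample stands for a mouse. Whether a B and a non-B sample came from the same mouse was not stated, and they were compared as unpaired samples. No treatment or allele other than IR and the Trp53 deletion was given for any group.

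p53 is a transcription factor that is kept at a low level in unstressed cells by ubiquitination and degradation, and that accumulates once DNA damage kinases phosphorylate it and its regulators. Among the genes that it activates are several whose products act back on p53, so that the response is limited in time. Mdm2 is the main E3 ubiquitin ligase of p53, and Mdm4 is its relative, which binds the p53 activation domain and works together with Mdm2. Ppm1d (also named Wip1) is a phosphatase that removes the phosphates placed by the DNA damage kinases. Ccng1 encodes cyclin G1, which recruits the phosphatase PP2A to Mdm2, and Rchy1 encodes Pirh2, a further ubiquitin ligase of p53. Lymphocytes are among the cells most sensitive to IR, and their death after irradiation depends largely on p53.

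The regulators lie on 4 chromosomes of the mouse genome, NCBIM37 (mm9), the build used for the files. Mdm2 is at chr10:117125944-117147814, Mdm4 at chr1:134886422-134921943, Ccng1 at chr11:40562054-40568813 and Rchy1 at chr5:92377930-92392094, all on the minus strand, and Ppm1d is at chr11:85124746-85160568 on the plus strand. The p53 response element consists of 2 decamers of 10 bases each, and was searched, without a spacer and with at most 3 mismatches over 20 bases and the core C and G of each decamer kept, from 5000 bases before to 2000 bases after each annotated gene start. The consensus is its own reverse complement, so that 1 scan covered both strands. The closest match of each gene that had any, and the second of Ccng1 with as few mismatches, are shown as the stretches most like the sequence that p53 binds, with the element in capitals, 5 flanking bases on either side, and each read along the strand of the gene.
Ccng1, before the gene: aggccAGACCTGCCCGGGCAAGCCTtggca
Ccng1, intron: ccggaACGCAAGCCCGGGCTAGTCTgcgcc
Mdm2, within the gene: gggctGGTCAAGTTGGGACACGTCCggcgt
Mdm4, before the gene: attaaAGGCTTGCACCACCATGCCCggcta

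Ccng1 held the closest matches. The element before Ccng1 (chr11:40568964-40568983) had 1 mismatch and was centred 160 bases from the gene start, and the intronic element (chr11:40568438-40568457) also had 1 mismatch. The Mdm2 element (chr10:117147161-117147180) had 3 mismatches and lay 644 bases after the gene start, in an exon of 1 of the 6 annotated transcripts that cover it, outside any annotated UTR or coding sequence. The Mdm4 element printed (chr1:134924097-134924116), 2164 bases before the gene start, had 3 mismatches as well, as did 2 matches that are not printed, at chr1:134926289-134926308 for Mdm4 and, 1090 bases before the gene, at chr11:40569893-40569912 for Ccng1. Ppm1d and Rchy1 had no match in this window. Of the 19743 genes with an annotated start, 1.30% held a match with at most 1 mismatch and 29.6% held a match with at most 3. In the shorter promoter windows of RefSeq (GRCm38.p6, 250 bases before to 50 after the start), of the 5 regulators Ccng1 held a match, while 1.38% of all 32851 windows did with at most 3 mismatches. A match is a description of the sequence, and its absence says nothing of binding by p53 elsewhere.

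Levels are given in the deposited unit, RPKM, a read number scaled by gene length and by the exon reads of the sample. Depth, estimated from the spacing of the lowest values, lay between 4.75 M and 11.05 M reads per sample (M for mega), which corresponds to between 316 and 3859 reads on each of the regulators and to a counting error of between 1.61% and 5.63% for a single value. These errors cover counting alone. B markers summed to between 1068 and 1246 RPKM in wild-type mock B cells and to between 356 and 572 in their non-B counterparts, so that the non-B samples still held B cell RNA, and T markers to between 166 and 178 against between 534 and 764. None of the defining B or T markers was at 0 throughout a group. Trp53 itself had between 21.6 and 25.0 RPKM in Trp53-/- mock samples against between 43.4 and 49.5 in wild-type mock samples. The gene total thus fell without reaching 0 and does not by itself check the genotype. Cdkn1a, the p53 target that encodes the cell cycle inhibitor p21, went from a mean of 1.08 to 89.5 RPKM after IR in wild-type B cells, and from 0.626 to 0.644 in Trp53-/- B cells. In wild-type samples after IR, the share of 1440 olfactory and vomeronasal receptor genes with a value above 0 was uneven, between 7.01% and 51.3%, against between 5.42% and 9.31% in wild-type mock samples. It was highest in replicates 1 and 2 of the B cells and in replicates 3 and 4 of the non-B cells.

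IR raised 4 of the 5 regulators in wild-type B cells, and Rchy1 was the exception. Mdm2, Ccng1 and Ppm1d went up about as much as each other, and Mdm4 less. Mdm2 had 29.1, 31.1, 30.4 and 32.7 RPKM in the 4 mock samples and 96.7, 106, 98.2 and 94.98 after IR. All irradiated samples lay above all mock samples, the lowest of them at 2.90 times the highest mock value. On the log2(RPKM + 0.5) scale used for every test, the difference was 1.67 (95% interval 1.55 to 1.79), a fold of 3.18, with an adjusted p of 3.5e-10 (limma, Benjamini-Hochberg adjustment over 13821 genes).

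Ccng1 had the largest gain of the 5 in RPKM, at 104 on the mean. It had 51.0, 48.1, 55.7 and 42.1 RPKM in mock B cells and 152, 171, 153 and 139 after IR, again without overlap. The log2 difference was 1.64 (1.45 to 1.82), with a limma adjusted p of 2.0e-08. Ppm1d was the least abundant of the regulators in mock B cells, with 16.1, 15.5, 13.1 and 17.8 RPKM, and had 44.9, 45.7, 48.1 and 47.5 after IR. Its log2 difference was 1.55 (1.38 to 1.73), with a limma adjusted p of 1.8e-08.

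Mdm4 started from the highest level of the 5. Its values in mock B cells were 67.7, 76.6, 77.4 and 71.0 RPKM, and 123, 139.8, 123 and 116 after IR. The groups did not overlap, and the log2 difference was 0.77 (0.62 to 0.92), with a limma adjusted p of 1.8e-06. The intervals of Mdm4 and of Mdm2, Ppm1d and Ccng1 did not overlap either.

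Rchy1 stood apart. It had 28.9, 28.1, 26.3 and 32.4 RPKM in mock B cells and 25.1, 25.5, 33.8 and 29.6 after IR, so that the groups overlapped. The log2 difference was -0.028 (-0.24 to 0.18), with a limma adjusted p of 0.82. The low pair of irradiated values came from replicates 1 and 2, in which 36.7% and 47.3% of the receptor genes were above 0. Without these samples the difference was 0.13.

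A gene was called when its adjusted p was under 0.05 and its log2 difference above 0.58 in size. By this rule, 4 of the 5 regulators were higher after IR in wild-type B cells, where 12.5% of all genes tested were. Complete separation of irradiated above mock samples held for the same 4 regulators, and for 22.9% of all genes. The makeup of the B cell fraction moved with treatment as well. T markers summed to between 166 and 178 RPKM in mock and to between 71.0 and 112 in irradiated wild-type B samples, and erythroid markers to between 57.8 and 122 and then to between 45.9 and 52.9. T markers in Trp53-/- B samples were between 162 and 189 RPKM in mock and between 97.4 and 117 after IR. The part of these shifts in the values of the regulators was not tested. Mdm2 ranked 278 from the top among the 13821 differences, Ccng1 293, Ppm1d 329 and Mdm4 1262.

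The regulators were well expressed before any damage. The percentile among all genes in the files was taken in each sample and averaged. In mock wild-type B cells it was 98.0 for Mdm4, 94.2 for Ccng1, 86.1 for Mdm2, 84.7 for Rchy1 and 70.2 for Ppm1d. After IR the percentiles were 99.6 for Mdm4, 99.8 for Ccng1, 99.1 for Mdm2, 83.9 for Rchy1 and 93.1 for Ppm1d. Ccng1 thus passed Mdm4, with 139 to 171 RPKM against 116 to 139.8, although 1 value of Ccng1 lay within the range of Mdm4.

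**Figure D1:**
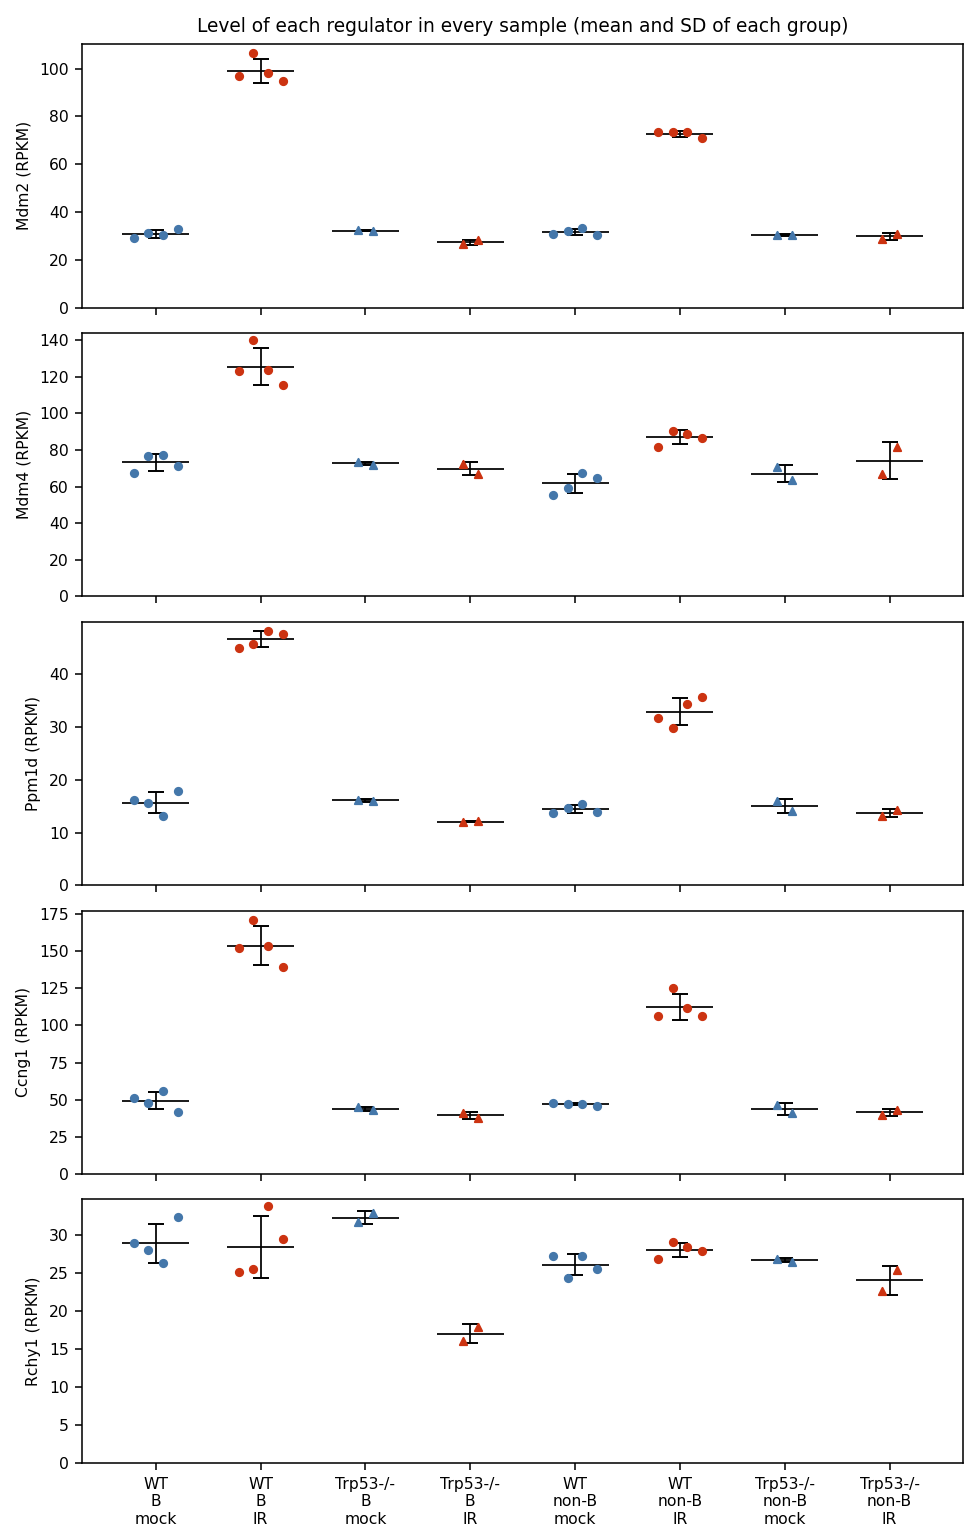
RPKM of each regulator in every sample, by genotype, cell type and treatment, where blue marks mock and red IR, circles wild-type (WT, n = 4) and triangles Trp53-/- samples (n = 2), and lines give the mean and SD of each group. The irradiated wild-type samples lie above all other samples for Mdm2, Mdm4, Ppm1d and Ccng1, while for Rchy1 the irradiated Trp53-/- B samples, at 16.1 and 17.9 RPKM, lie below all others.

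In wild-type non-B cells the same 4 regulators had higher values after IR, and 3 of them were called. Mdm2 had 30.9, 31.9, 33.2 and 30.4 RPKM in mock samples and 73.4, 73.3, 73.3 and 70.8 after IR, with a log2 difference of 1.19 (1.07 to 1.31) and a limma adjusted p of 1.5e-07. The lowest irradiated value was 2.13 times the highest mock value. Ccng1 had 48.2, 47.4, 47.1 and 46.0 RPKM in mock samples and 106, 125, 112 and 106 after IR, a log2 difference of 1.24 (1.08 to 1.40) with a limma adjusted p of 7.0e-07. Neither gene showed any overlap between the groups.

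Ppm1d went from 13.7, 14.7, 15.3 and 13.9 to 31.7, 29.9, 34.3 and 35.6 RPKM, a log2 difference of 1.16 (0.98 to 1.34) with a limma adjusted p of 3.8e-06. Mdm4 had 55.5, 59.4, 67.4 and 64.5 RPKM in mock samples and 81.7, 90.4, 89.0 and 86.8 after IR. All irradiated values were higher, and the limma adjusted p was 0.0026, but the log2 difference of 0.49 (0.31 to 0.68) was under the threshold of 0.58. With the mean level of the receptor genes as a covariate, the adjusted p of Mdm4 was 0.14, and in replicates 3 and 4 alone it was 0.052. Rchy1 had 27.2, 24.4, 27.2 and 25.6 RPKM in mock samples and 26.9, 29.1, 28.5 and 27.9 after IR, with a log2 difference of 0.10 (-0.039 to 0.25) and a limma adjusted p of 0.28.

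Thus 3 of the 5 regulators were called higher in non-B cells, where 5.74% of all genes tested were, and 4 passed the adjusted p alone in that direction, as 8.72% of all genes did. The balance of the all-gene calls depended on the replicates, with 58.3% of them higher with all samples, 32.2% in replicates 1 and 2 alone and 71.3% in replicates 3 and 4 alone. Every irradiated sample lay above every mock sample for 4 regulators and for 1407 of all 14018 genes. The makeup of the non-B samples moved with treatment, and erythroid markers summed to between 136 and 401 RPKM in wild-type mock samples and to between 34.8 and 100 after IR, while T markers went from between 534 and 764 to between 409 and 526. The part of these shifts in the values of the regulators was not tested, and in bulk samples fewer cells of a type and less RNA per cell cannot be told apart.

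Trp53-/- cells were used to ask which responses need p53. In Trp53-/- B cells none of the 5 regulators rose. Mdm2 had 32.4 and 32.0 RPKM in the mock samples and 26.6 and 28.1 after IR, with a log2 difference of -0.23 (-0.40 to -0.063) and a limma adjusted p of 0.031. Ppm1d had 16.2 and 15.9 RPKM and then 12.001 and 12.103, with a log2 difference of -0.40 (-0.65 to -0.15) and a limma adjusted p of 0.013. Both were thus slightly lower after IR without p53, by less than the threshold. Leaving out either mock sample or irradiated replicate 1 took the adjusted p of both genes above 0.05, up to 0.17 for Mdm2 and 0.073 for Ppm1d.

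Ccng1 had 44.9 and 43.2 RPKM in mock Trp53-/- B cells and 41.1 and 38.0 after IR, with a limma adjusted p of 0.34 for a log2 difference of -0.15 (-0.42 to 0.11). Mdm4 had 73.3 and 72.0 RPKM and then 72.4 and 67.1, with a limma adjusted p of 0.67 for a log2 difference of -0.060 (-0.27 to 0.15). For neither gene was a change detectable with these samples.

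Rchy1, which did not pass the test in wild-type B cells, fell in Trp53-/- B cells. It had 31.7 and 32.9 RPKM in the mock samples and 16.1 and 17.9 after IR. The log2 difference was -0.91 (-1.20 to -0.61), so that the mock level was 1.87 times the irradiated level, with a limma adjusted p of 0.00022. Rchy1 was the 1 regulator called lower, where 11.2% of all genes tested were, and 3 passed the adjusted p alone in that direction, as 17.2% of all genes did. Both irradiated samples lay below both mock samples for 4 regulators, and for 32.0% of all genes.

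In Trp53-/- non-B cells the 5 log2 differences lay between -0.15 and 0.14. None of the regulators was called by limma and none had an unadjusted p under 0.05, with 0.442% of all genes called in either direction. Mdm4 had 70.5 and 63.7 RPKM in mock samples and 67.0 and 81.4 after IR, the widest spread of the 5 in these cells. Mdm2 had 30.6 and 30.2 RPKM and then 28.8 and 30.7. Ppm1d had 15.97 and 14.2 RPKM and then 13.2 and 14.2, and Ccng1 46.7 and 41.0 and then 39.7 and 43.4. Rchy1, with 26.9 and 26.5 RPKM and then 22.7 and 25.4, was the only regulator with both irradiated samples below both mock samples, as were 25.3% of all genes.

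**Figure D2:**
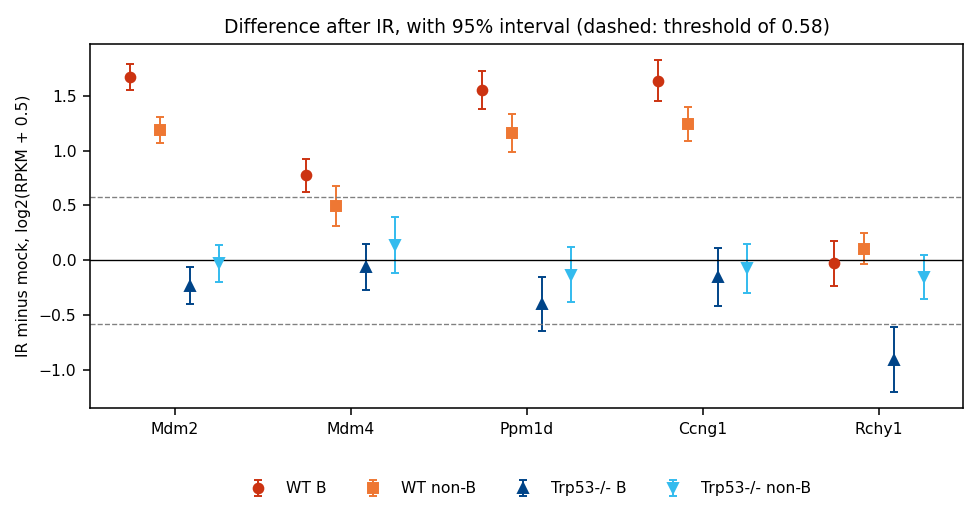
Difference between irradiated and mock samples on the log2(RPKM + 0.5) scale, with 95% intervals from limma, for the 5 regulators in wild-type (WT) and Trp53-/- B and non-B cells, where dashed lines mark the threshold of 0.58. Mdm2, Ppm1d and Ccng1 lie between 1.16 and 1.67 in wild-type cells and between -0.40 and -0.029 in Trp53-/- cells, and Rchy1 lies at -0.91 in Trp53-/- B cells.

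The response itself differed between the genotypes. In B cells the wild-type log2 difference exceeded that of Trp53-/- cells by 1.95 (1.65 to 2.25) for Ppm1d, 1.90 (1.69 to 2.11) for Mdm2, 1.79 (1.47 to 2.11) for Ccng1, 0.88 (0.52 to 1.24) for Rchy1 and 0.83 (0.57 to 1.09) for Mdm4. All 5 were called in this interaction test, with limma adjusted p between 8.0e-08 for Mdm2 and 0.0036 for Rchy1, where 6.56% of all genes were called in that direction. Rchy1 was among them through its fall in Trp53-/- cells, since its level in wild-type cells did not pass the test.

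In non-B cells the difference between the genotypes was 1.32 (1.05 to 1.58) for Ccng1, 1.29 (0.99 to 1.60) for Ppm1d and 1.22 (1.01 to 1.42) for Mdm2. These 3 were called, where 3.72% of all genes were. Mdm4 at 0.36 (0.039 to 0.67) had a limma adjusted p of 0.15, and Rchy1 at 0.25 (0.0062 to 0.50) had 0.19. Whether the response of Mdm4 in non-B cells differed between the genotypes was thus not resolved with 2 Trp53-/- samples per condition.

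Before IR, the genotypes did not differ detectably. The log2 difference of Trp53-/- against wild-type mock cells lay between -0.15 and 0.16 for the 5 regulators among B samples and between -0.11 and 0.12 among non-B samples. No regulator was called by limma, and none had an unadjusted p under 0.05, while of all genes 0.0506% (B) and 0.0428% (non-B) were called. For Mdm2 the interval was -0.083 to 0.21 in the former and -0.20 to 0.090 in the latter.

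Ordered by mean level over the 8 groups, irradiated wild-type B cells were highest and irradiated wild-type non-B cells next for Mdm2, Mdm4, Ppm1d and Ccng1, and for each of these genes neither group overlapped its neighbour below. Irradiated Trp53-/- B cells were the lowest group for Mdm2, Ppm1d, Ccng1 and Rchy1. Most neighbouring groups between these ends overlapped. For Rchy1 the highest group was mock Trp53-/- B cells, with a mean of 32.3 RPKM, and it overlapped the mock wild-type B cells below it.

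Next, B and non-B cells were compared directly in the 16 wild-type samples. In mock samples no regulator was called, where 24.6% of all genes tested were called in either direction. Mdm4 alone passed the adjusted p, as 41.0% of all genes did, with a mean of 73.2 ± 4.67 RPKM (SD, n = 4) in B cells against 61.7 ± 5.28 in non-B cells, a log2 difference of 0.25 (0.087 to 0.41) with a limma adjusted p of 0.015. Without mock non-B replicate 1 its adjusted p was 0.058, with the receptor covariate 0.17, and in replicates 3 and 4 alone 0.19.

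After IR, Mdm2, Mdm4, Ppm1d and Ccng1 were all higher in B cells, by 0.44, 0.52, 0.50 and 0.45 on the log2 scale. The 4 genes passed the adjusted p (limma, between 3.9e-06 and 0.00021), as 32.2% of all genes did in that direction. None passed the threshold of 0.58, whereas 35.6% of all genes were called in either direction. For Mdm2 the means were 99.1 ± 5.03 RPKM (SD, n = 4) in B cells against 72.7 ± 1.25 in non-B cells. Rchy1, at 28.5 ± 4.08 and 28.1 ± 0.927 RPKM, gave a log2 difference of 0.010 (-0.18 to 0.20).

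The size of the response was compared between the cell types by the interaction of cell type and IR. Mdm2 rose more in B cells, by 0.48 (0.31 to 0.64) on the log2 scale with a limma adjusted p of 0.00035. Ccng1 at 0.40 (0.15 to 0.65) had an adjusted p of 0.020 and Ppm1d at 0.39 (0.14 to 0.64) an adjusted p of 0.021. Mdm4 at 0.28 (0.054 to 0.50) did not pass, with 0.061, and neither did Rchy1 at -0.13 (-0.40 to 0.13), with 0.46. The 3 genes passed the adjusted p, as 15.4% of all genes did in that direction, but none reached the threshold of 0.58, with 18.8% of all genes called in either direction. With median-ratio scaling of the samples the adjusted p of Ccng1 was 0.061, in replicates 1 and 2 alone 0.058, and without the irradiated samples of high receptor share 0.16. In replicates 3 and 4 alone the adjusted p of both Ppm1d and Ccng1 was 0.18. Mdm4 passed, with an adjusted p of 0.035, when the replicate number was fitted as a block. Since the non-B samples held B markers at between 240 and 485 RPKM after IR against between 982 and 1094 in B cells, these values compare a B cell fraction with a mixture. The part of that mixture in the differences was not tested.

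The balance of Mdm2 to Mdm4 shifted with IR, which can be read within each sample without any scaling between libraries. In wild-type B cells the ratio of their RPKM was 0.422 ± 0.0302 (SD, n = 4) in mock samples and 0.790 ± 0.0253 after IR, with a highest mock value of 0.461 and a lowest irradiated value of 0.761. The log2 ratio was higher by 0.91, a fold of 1.88, with p = 0.0286 in a two-sided exact permutation test, which is the smallest p that 4 against 4 samples can give. In wild-type non-B cells the ratio was 0.514 ± 0.0394 in mock samples and 0.837 ± 0.0410 after IR. The log2 ratio was higher by 0.71, a fold of 1.63, with the same exact permutation p of 0.0286.

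In Trp53-/- cells no such rise was seen. The ratio was 0.442 and 0.444 in mock B cells and 0.367 and 0.418 after IR, and 0.433 and 0.474 in mock non-B cells and 0.430 and 0.377 after IR. With 2 against 2 samples no permutation test could pass 0.05. In all 24 samples the ratio stayed under 1, with a highest value of 0.898, so that Mdm4 had the higher RPKM of the pair throughout.

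**Figure D3:**
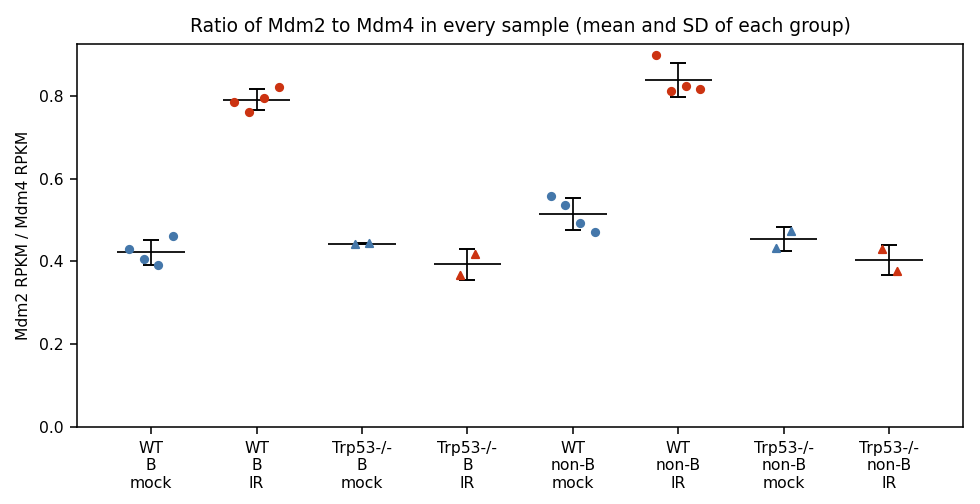
Ratio of Mdm2 RPKM to Mdm4 RPKM in every sample, by genotype, cell type and treatment, where blue marks mock and red IR, circles wild-type (WT, n = 4) and triangles Trp53-/- samples (n = 2), and lines give the mean and SD. The irradiated wild-type samples lie between 0.761 and 0.898, above all other samples, which lie between 0.367 and 0.557.

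Duplicate reads were reduced to 1 before the authors counted, which limits the value that a strongly expressed gene can reach. No gene of any sample passed an estimated 1.94 distinct reads per base of exon. The regulators reached 1.10 (Ccng1), 0.888 (Mdm4), 0.730 (Mdm2), 0.365 (Ppm1d) and 0.309 (Rchy1). When the values were converted with a limit of 2 distinct reads per base, a step added after seeing the data, the differences in wild-type B cells were 1.92 for Ccng1, 1.83 for Mdm2, 1.61 for Ppm1d and 0.84 for Mdm4. The order of Mdm2 and Ccng1 was then the reverse of that given above, while their intervals overlapped under the deposited values.

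The genes whose pattern was most like that of each regulator were found by the Pearson correlation of log2(RPKM + 0.5) over the 24 samples, among 14688 genes. The samples share treatment, genotype and cell type, so the values are descriptions. Cep170b (r = 0.991, Spearman rho = 0.739), Prrg4 (0.990, 0.685) and Ppm1d (0.988, 0.894) were nearest to Mdm2. Prrg4 went from a mean of 3.95 to 76.9 RPKM after IR in wild-type B cells and was at 2.83 and 2.86 in Trp53-/- B cells.

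Ppm1d was nearest to Mdm2, Cdc42bpg (r = 0.986, rho = 0.878) and Cep170b (0.983, 0.784). Nearest to Ccng1 were Mdm2 (0.987, 0.795), Prrg4 (0.987, 0.866) and Gcdh (0.985, 0.884), a mitochondrial dehydrogenase. Mdm2 was thus the nearest gene to both Ppm1d and Ccng1, and Ppm1d was among those nearest to Mdm2. Mdm2, Ppm1d and Ccng1 correlated with each other at between 0.971 and 0.988, and Mdm4 correlated with them at between 0.888 and 0.890. Mdm4 lay nearest to Wnk1 (0.956, 0.854), Phf3 (0.955, 0.870) and Arap2 (0.954, 0.928).

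Rchy1 correlated with the other regulators at between 0.219 and 0.386, and had Zcchc24 (r = 0.859, rho = 0.803) and Trpv2 (0.834, 0.579) among its nearest genes. Zcchc24 had means of 17.0 RPKM in mock and 3.52 in irradiated Trp53-/- B cells, and of 15.8 and 11.9 in wild-type B cells. Trpv2, a cation channel, had 23.97 and 11.1 RPKM in Trp53-/- B cells, and 23.8 and 27.7 in wild-type B cells.

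The regulators were then set beside 4 lists of related genes. Among other inhibitors of p53, such as further ubiquitin ligases and p53-modifying enzymes, 3 of the 23 tested were called higher and 1 lower after IR in wild-type B cells, and the list had a median log2 difference of 0.066 where all genes had 0.011. For comparison, 12.5% of all genes tested were called higher and 12.2% lower. Gtse1, which takes p53 out of the nucleus, rose by 4.67 (limma adjusted p of 5.5e-10), and Ppp1r13l, an inhibitor of p53 known as iASPP, rose by 1.66. The others, named after their values were seen, were Smyd2, a p53 methyltransferase, which rose by 1.21, and Aurka, a mitotic kinase, which fell by 0.64. Markers of dividing cells summed to between 49.0 and 116 RPKM in mock and to between 37.1 and 54.0 in irradiated wild-type B cells. In wild-type non-B cells 2 rose, Gtse1 by 2.62 and Ppp1r13l by 0.92, and 1 fell, namely Dtl, a subunit of a ubiquitin ligase of the S phase, by 1.70. There 5.74% of all genes tested were called higher and 4.11% lower. The list had a median of -0.076. Markers of dividing cells summed to between 77.9 and 262 RPKM in mock and to between 49.6 and 106 in irradiated samples.

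Of the 22 antagonists of Mdm2 and activators of p53 tested, 2 were called higher and 1 lower in wild-type B cells, against 12.5% and 12.2% of all genes, with a median of 0.00059. Chek2, a DNA damage kinase, rose by 1.73, Kat2b, an acetyltransferase, fell by 1.48, and Trp53inp1 rose by 1.02. In wild-type non-B cells 1 rose and 1 fell, Trp53inp1 by 0.87 and the replication checkpoint kinase Chek1 by 1.52, against 5.74% and 4.11% of all genes, with a median of -0.072. The list of PP2A subunits, Ppm1 phosphatases and partners or relatives of Ccng1 (the cyclins Ccng2 and Ccni, and the kinase Gak) had 1 member called higher and 5 lower of 22 in wild-type B cells, where 12.5% and 12.2% of all genes were, with a median of -0.20. Ppp2r5d, a regulatory subunit of PP2A, rose by 1.54, and Ccng2, the closest relative of Ccng1, fell by 1.51. The other 4 that fell, by between 0.64 and 0.90, were the phosphatase genes Ppm1l, Ppp2r5b and Ppm1m and the cyclin gene Ccni, named after their values were seen. In wild-type non-B cells Ppp2r5d alone was called, higher by 0.66, where 5.74% of all genes were called higher, and the median was -0.13.

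p53 target genes with other roles, in cell cycle arrest and cell death, were a list on which most members rose. In wild-type B cells 16 of 22 were called higher and 1 lower, against 12.5% and 12.2% of all genes, with a median of 2.19. In wild-type non-B cells 17 of 23 were called higher and none lower, against 5.74% and 4.11%. The median there was 1.38, with all genes at -0.030. Phlda3, an inhibitor of Akt signalling, rose by 6.17 in B cells, against 4.59 in non-B cells, Cdkn1a by 5.83 and 3.99, and the kinase Plk2 by 4.68 and 4.06. Rrm2b, named after its value was seen, encodes a ribonucleotide reductase subunit and fell by 0.80 in B cells. The median of the 5 regulators was 1.55 in wild-type B cells and 1.16 in wild-type non-B cells. The list holds genes chosen as known p53 targets, so its direction is no independent evidence.

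In Trp53-/- B cells, 2 of the 22 target genes were called higher and 8 lower, with a median of -0.19 where all genes had 0.018. The counts were 4 higher and none lower of 23 for the other inhibitors, 4 higher and 3 lower of 22 for the antagonists and activators, and 3 higher and 4 lower of 22 for the list with PP2A and Ppm1 genes, where 13.1% of all genes tested were called higher and 11.2% lower. Ccng2 fell by 1.59 and Kat2b by 1.55 in these cells. The genes named next were chosen after their values were seen. Of the target genes, Fas, a death receptor, rose by 1.46 and Aen by 1.15, while Trp53inp1 (-1.30), Gadd45a (-1.004), Rrm2b (-0.97), Apaf1 (-0.90), Plk2 (-0.77), Sesn1 (-0.74), Btg2 (-0.73) and Phlda3 (-0.69) fell. The other inhibitors that rose were the methyltransferases Smyd2 (2.00) and Setd8 (1.09), Dtl (0.89) and Trim28 (0.58), a corepressor that works with Mdm2. Of the antagonists and activators, the checkpoint kinases Chek1 (1.99) and Atr (0.73), the deubiquitinase Usp10 (0.70) and the ribosomal protein gene Rpl11 (0.58) rose, while Trp53inp1, which is in both lists, fell by 1.30 and Pml by 0.99. Among phosphatase genes Ppp2r5d (0.71), Ppm1g (0.61) and Ppm1f (0.59) rose, and Ppm1l, Ppp2r5b and Ppm1m fell by between 0.64 and 1.06. In Trp53-/- non-B cells 1 gene of all 4 lists was called, where 0.442% of all genes were. It was Aen, a p53-induced nuclease named after its value was seen, which rose by 0.74.

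The difference between the genotypes was called higher in wild-type cells for 18 of 22 target genes in B cells and 16 of 23 in non-B cells, and for none lower, with medians of 1.99 and 1.20. Among all genes tested in the B cell fit, 6.56% were called higher and 5.43% lower. For the non-B fit these shares were 3.72% and 2.82%. Of the 23 other inhibitors, the difference was called higher for 3 and lower for 3 in B cells. In non-B cells it was called higher for 1 and lower for 1. In B cells the 3 higher were Gtse1, Ppp1r13l (1.51) and the ubiquitin ligase Ube4b (0.64), and the 3 lower were Dtl (-1.43), Smyd2 (-0.78) and Setd8 (-0.61), while in non-B cells they were Gtse1 and Trim28 (-0.70). Of the antagonists and activators, Trp53inp1 (2.32), Chek2 (1.23) and Pml (0.63) were called higher and Chek1 (-2.07) lower in B cells, and Trp53inp1 (0.85) higher and Usp10 (-0.77) lower in non-B cells. Of the phosphatase genes, Ppp2r5d (0.83) and Ppm1f (-0.68) were called in B cells and none in non-B cells. Gtse1 had the largest of the differences among other inhibitors, at 4.50 in B cells against 2.68 in non-B cells.

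**Figure D4:**
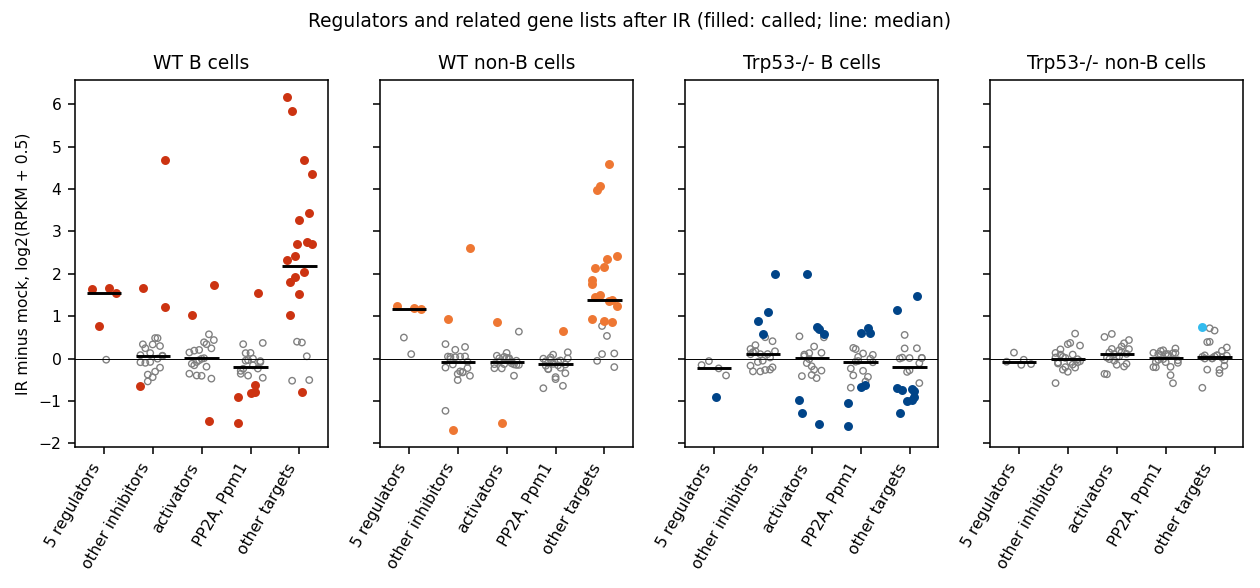
Difference between irradiated and mock samples on the log2(RPKM + 0.5) scale for the 5 regulators and for the genes of 4 lists (other inhibitors of p53, antagonists of Mdm2 and activators of p53, PP2A subunits, Ppm1 phosphatases and partners or relatives of Ccng1, and p53 targets with other roles), in each genotype and cell type. Filled points were called by limma, open points were not, and lines mark medians, which for the regulators are 1.55 in wild-type (WT) B cells and 1.16 in wild-type non-B cells.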

How the data were processed

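RNA-Seq values were analysed from 24 samples in 8 groups, taken from the sample labels. Per the study's methods, the authors masked low-quality bases, used TopHat for alignment to mm9, reduced each duplicate set to 1 read, counted reads per UCSC gene with featureCounts (1.4.5 per the submitters' processing notes) and deposited RPKM, scaled by gene length and by reads on exons. Without read counts, the count model of the study (DESeq2) was replaced by limma 3.58.1 in R 4.3.3, on log2(RPKM + 0.5) and with the trended prior variance, over genes with RPKM above 1 in at least 1 wild-type sample of the fit. Each cell type was fitted over its 12 samples with 4 group means, and the cell types were compared over the 16 wild-type samples. Calls needed an adjusted p under 0.05 (Benjamini-Hochberg) and an absolute log2 difference above 0.58. The fit was tested on simulated B cell data, with 100 genes changed by 0.8 and 100 by 1.5 on the log2 scale in irradiated wild-type samples. It recovered 74 and 86 of them after IR in wild-type cells, with 7 false calls. In the difference between the genotypes 41 and 67 of them were called.

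Genes of the lists were named when they had the 2 largest called differences of a list in wild-type B or non-B cells, and the 3 most alike genes of each regulator by Pearson correlation, of which 1 is not reported here. The regulators, lists, markers and tests were chosen with earlier results of these data known. The search from 5000 before to 2000 after gene starts was added after the data were seen. Depth was estimated with GENCODE exon lengths, matched by symbol for 91.1% of genes. Between 54.4% and 67.1% of the low values lay within 0.1 of a whole read, so that no read counts were recovered and no count test was run. Alternatives covered pseudocounts, filters, scaling, a receptor gene covariate, a replicate block, subsets of replicates, other thresholds and leaving out each sample. Python 3.11.15, numpy 2.4.6, pandas 2.3.3 and matplotlib 3.10.9 were used. Replicates of a cell type are separate mice per the methods. All 4 pairs of same-numbered mock and irradiated wild-type non-B samples deviated together (correlations between 0.155 and 0.330), though the labels name no shared batch and the null pairs were at -0.264. Differently numbered wild-type pairs did so too within replicates 1 and 2 or within replicates 3 and 4, at between 0.132 and 0.325. Pairs across these sets were at between -0.383 and -0.136, so the pattern was not particular to the number. With the number as a block, 1565 genes were called in wild-type non-B cells against 1381, and the regulators called were the same.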

Additional observations from a re-analysis of the deposited data

Results flagged for a closer look

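In wild-type non-B cells after IR, 1 Mdm2 value, 70.8 RPKM in replicate 4, lay apart from the other three, which were between 73.3 and 73.4 RPKM, and 1 value of the ratio of Mdm2 to Mdm4, 0.898 in replicate 1, lay apart from the others, between 0.810 and 0.825. These were the 2 of 24 sets of 4 values in which a sample stood that far from the rest, and chance gives about 1 in 20 such sets.

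In the interaction test of B against non-B responses to IR, Mdm2 (0.48 on the log2 scale), Ccng1 (0.40) and Ppm1d (0.39) passed the adjusted p alone. So did 15.4% of all genes in that direction. None of these regulators reached the log2 threshold for a call, whereas 18.8% of all genes were called in either direction. In wild-type replicates 3 and 4 alone the limma adjusted p of both Ppm1d and Ccng1 was 0.18. That of Ccng1 was 0.061 with median-ratio scaling. The difference in response between wild-type and Trp53-/- B cells was called for Ppm1d (1.95), Mdm2 (1.90), Ccng1 (1.79), Rchy1 (0.88) and Mdm4 (0.83). Between wild-type and Trp53-/- non-B cells it was called for Ccng1 (1.32), Ppm1d (1.29) and Mdm2 (1.22).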

How the results depend on the processing

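The calls of Mdm2, Ppm1d and Ccng1 in wild-type cells, and in the differences between genotypes, were the same under every alternative run, and leaving out any 1 sample changed no count of called regulators. Without a log2 threshold the number called after IR was 4 in wild-type non-B cells, where Mdm4 was added, and 3 in Trp53-/- B cells. It was 1 between mock B and non-B cells, 4 between irradiated B and non-B cells and 3 in the difference between B and non-B responses. With a threshold of 1 it was 3 in wild-type B cells, where Mdm4 was lost. It was then 0 in Trp53-/- B cells and 3 in the genotype difference in B cells. Irradiated B and non-B cells gave 1 call from replicates 1 and 2 alone (Mdm4, 0.61), and 1 without the irradiated samples of high receptor share (added after seeing the data, Ppm1d, 0.63).

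Signs reversed in uncalled values near 0. For Rchy1 in wild-type B cells after IR the value was 0.13 with the receptor covariate, 0.11 in replicates 3 and 4 alone, 0.13 without the samples of high receptor share, and between -0.11 and 0.028 with 1 sample left out. For Rchy1 between irradiated B and non-B cells it was -0.028 with median-ratio scaling, -0.14 in replicates 1 and 2 alone, -0.0091 with the conversion for duplicate reads, and between -0.074 and 0.067 with 1 sample left out. The difference between B and non-B responses of Rchy1 was 0.020 in replicates 3 and 4 alone and 0.033 without the samples of high receptor share. Between mock genotypes in B cells, Mdm4 was at 0.0016 with the covariate and 0.013 in replicates 1 and 2 alone, and with 1 sample left out it lay between -0.045 and 0.020 and Ppm1d between -0.034 and 0.11. In non-B cells Ppm1d was at -0.0041 with the covariate and between -0.023 and 0.15 with 1 sample left out. After IR in Trp53-/- non-B cells, Mdm2 was at 0.00066 with median-ratio scaling and between -0.075 and 0.016 with 1 sample left out, and Ccng1 between -0.17 and 0.018. Ccng1 between mock B and non-B cells lay between -0.0066 and 0.13. The cause of these shifts was not tested.

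The log2 change of the ratio of Mdm2 to Mdm4 was 0.89 (B cells) and 0.64 (non-B cells) in replicates 1 and 2 alone and 0.93 and 0.77 in replicates 3 and 4 alone, where 2 against 2 samples allow no exact permutation p under 0.333. Same-numbered mock and irradiated samples correlated at between 0.010 and 0.091 in B cells, and B with non-B samples at between -0.102 and 0.351, and were not taken as pairs there. With the replicate block the ratio changes were 0.91 and 0.71, with an exact permutation p of 0.125, the smallest possible for 4 pairs, and no call of a regulator changed. The block moved the all-gene count from 62 to 17 in Trp53-/- non-B cells after IR and from 6 to 11 between mock genotypes in non-B cells.

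All-gene counts moved by over 1.5 times. With no log2 threshold and with a threshold of 1, respectively, they were 7084 and 1332 against 3415 after IR in wild-type B cells, 2615 and 637 against 1381 in wild-type non-B cells, 5547 and 1415 against 3355 in Trp53-/- B cells, 2594 and 783 against 1656 for the genotype difference in B cells, 5991 and 2105 against 3587 between mock and 8776 and 2579 against 5194 between irradiated B and non-B cells. A threshold of 1 also gave 1116 against 2742 for the B and non-B difference of responses, 504 against 918 for the genotype difference in non-B cells and 37 against 62 in Trp53-/- non-B cells. The covariate gave 305 in wild-type non-B cells and 260 in their genotype difference. A joint fit of 24 samples gave 1430 in that difference and 286 in Trp53-/- non-B cells. Without irradiated wild-type non-B replicate 3 the counts were 918 (wild-type), 580 (genotype difference) and 22 (Trp53-/- non-B). Without a Trp53-/- non-B sample they were 530 and 341 (mock 1 and 2) and 306 and 532 (irradiated 1 and 2) in the genotype difference, and 0, 0, 0 and 10 in Trp53-/- non-B cells, where mock wild-type replicates 2, 3 and 4 gave 16, 37 and 38 when left out, replicates 1 and 2 alone 24, and leaving out the samples of high receptor share 5. Without mock or irradiated Trp53-/- B replicate 1 the genotype difference in B cells had 1060 and 1073. Between mock genotypes, 7 calls in B cells became 13 without wild-type replicate 4 or in replicates 1 and 2 alone, and 6 in non-B cells became 49 in replicates 1 and 2 alone, and 3 in replicates 3 and 4 alone or without Trp53-/- replicate 1. In replicates 1 and 2 and in replicates 3 and 4 alone, 39.5% and 68.2% of the calls of the genotype difference were higher in B cells (54.7% with all samples), and 42.3% and 67.8% in non-B cells (56.9%).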

Other observations

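The Trp53 transcript itself had a response to IR that differed between the cell types. In wild-type B cells they went from a mean of 46.2 to 61.8 RPKM, a log2 difference of 0.42 (95% interval 0.30 to 0.53), and in wild-type non-B cells from 46.6 to 36.9, a log2 difference of -0.33 (-0.47 to -0.19). Neither reached the threshold of 0.58 for a call, with limma adjusted p of 2.9e-05 and 0.0065. The interaction of cell type and IR was 0.75 (0.56 to 0.93), which was called, with a limma adjusted p of 1.9e-05. The reads left on the gene in Trp53-/- cells went from 21.6 to 41.2 RPKM in the B samples and from 24.5 to 35.5 in the non-B samples, log2 differences of 0.91, which was called, and 0.53, which was not.

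The interaction of cell type and IR, for which none of the regulators was called, was called for several p53 target genes with other roles. Of 23, 11 had a higher and 2 a lower response in B than in non-B cells, against 9.88% and 8.9% of all genes. The median of this list was 0.58, where all genes had 0.050. Bbc3, which encodes the cell death protein Puma and was named after its value was seen, differed by 1.93, Cdkn1a by 1.85 and Phlda3 by 1.59. The lower genes were Rrm2b (-0.75) and Ddb2 (-0.63). Of the other inhibitors of p53, 4 of 23 were called higher and none lower, with a median of 0.26, namely Gtse1 (2.06), Smyd2 (1.62), Setd8 (0.80) and Trim28 (0.70), and of the antagonists and activators 4 of 22 higher and 1 lower, with a median of 0.12, namely Chek1 (1.44), Chek2 (1.10), Usp10 (0.98) and Rpl11 (0.59) against Kat2b (-1.34). The list of PP2A, Ppm1 and Ccng1-related genes gave 2 higher and 2 lower of 22, with a median of 0.0045, namely Ppp2r5d (0.89) and Ppp2r1b (0.58) against Ccng2 (-1.51) and Ccni (-0.74). Genes outside those named in the report were named after their values were seen.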
